A study of Rattus norvegicus with 12 samples.

Results

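Transcript levels of 35 transcription factor genes, 22 Hox genes and 13 factors linked to the identity of prostate epithelium, were followed in the rat ventral prostate, out of 14506 genes measured on the same arrays. A gene was taken as a member if an array probe set named it as its only gene and if its symbol was Hox, a letter a to d and a number, or was on a list of 14 lineage factors. Of the listed factors Sox9 had no probe set of its own and was not analysed here. For Klf4 and Klf5, which had 2 probe sets each, the one with the higher mean over all 12 arrays was used. This choice of probe set did not use differences between groups. The members themselves were chosen with earlier results of these data known.

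All groups were male Wistar rats 90 days old, and the ventral prostate was taken 3 days after the procedure, with 3 arrays per group. Castrated rats lost both testes through a scrotal incision, with ketamine at 150 mg/kg and xylazine at 10 mg/kg as anaesthesia. Estradiol rats kept their testes and were dosed with corn oil that held 17β-estradiol at 25 mg/kg. Rats of the combined group had the operation and the same dose, and control rats were intact and received the oil alone. The series describes the 3 procedures as ways of depriving the gland of androgen. Whether rats that were only castrated received oil is not stated, and no control for surgery or anaesthesia was among the groups, so those effects cannot be told apart from the loss of the testes. The sources used here do not give how animals relate to arrays or whether any were pooled. The p-values therefore cover the spread between these 12 samples, part of which may be technical.

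Hox genes encode homeodomain transcription factors that lie in clusters on the chromosome and record a cell's position along the body axis. The genes at the posterior end of the clusters pattern the urogenital sinus, from which the prostate buds, and adult prostate retains several of them. Foxa1 and Gata2 open chromatin for the androgen receptor in human prostate cells, while Klf, Ets, Grhl and Creb3-like factors serve epithelial differentiation and secretion. The groups were compared for the level of these transcripts after each way of withdrawing androgen.

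The promoters below belong to the members with an entry in the RefSeq table whose level lay outside the control range, on the same side, on all 9 arrays of treated rats: Creb3l1 and Spdef on the lower side and Klf4 on the higher side. They were chosen after the values were seen, and Klf4 met the criterion only on the probe set used. Each is read from RefSeq, build GRCr8, 5′ to 3′ on the strand of the gene, and covers 250 bases before and 50 bases after the annotated start. The capitals mark the 50 bases from the start on. The Creb3l1 window is chr3:98449055-98449354 on the minus strand, the Spdef window is chr20:5787636-5787935 on the minus strand, and the Klf4 window is chr5:75078543-75078842 on the minus strand.
Creb3l1: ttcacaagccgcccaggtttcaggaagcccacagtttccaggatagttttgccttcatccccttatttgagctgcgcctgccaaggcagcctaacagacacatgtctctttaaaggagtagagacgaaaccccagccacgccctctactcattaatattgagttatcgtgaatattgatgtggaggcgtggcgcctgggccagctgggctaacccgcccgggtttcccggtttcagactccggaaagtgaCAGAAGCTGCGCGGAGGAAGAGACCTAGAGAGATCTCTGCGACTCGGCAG
Spdef: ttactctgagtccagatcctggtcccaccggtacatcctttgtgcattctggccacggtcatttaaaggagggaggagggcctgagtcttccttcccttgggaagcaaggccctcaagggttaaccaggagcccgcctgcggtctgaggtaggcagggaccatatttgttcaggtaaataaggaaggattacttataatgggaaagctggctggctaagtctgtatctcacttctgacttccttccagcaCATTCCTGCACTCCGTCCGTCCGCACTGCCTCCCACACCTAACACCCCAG
Klf4: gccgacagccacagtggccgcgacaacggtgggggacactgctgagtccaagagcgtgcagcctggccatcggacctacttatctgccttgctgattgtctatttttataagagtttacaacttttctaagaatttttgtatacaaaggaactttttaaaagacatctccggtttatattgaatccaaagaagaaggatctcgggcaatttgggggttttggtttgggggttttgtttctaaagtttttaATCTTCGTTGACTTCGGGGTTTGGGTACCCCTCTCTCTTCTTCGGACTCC
Hoxb13 and Hoxb4 met the same criterion and had no promoter entry.

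Promoter entries were found for 21 of the 35 members and were searched on both strands for 3 hormone receptor motifs. The androgen and glucocorticoid receptor half-site AGAACA was present in 2 of the 21, those of Foxa2 and Hoxd4, against 20.7% of the 33469 promoters in the table. The full palindrome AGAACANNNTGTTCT, which contains the half-site, was in 0 of the 21 and in 0.0149% of all promoters. The core of the oestrogen response element, GGTCANNNTGACC, was in 0 of the 21 and in 0.0269% of all promoters. None of the 3 promoters printed above held any of these motifs, which describes these windows only.

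Values are on a scale taken as log2, where 1 unit stands for a 2-fold change. The labelled tissue carried its markers: Krt8, a keratin of luminal epithelium, averaged 10.29 ± 0.24 in control glands (SD, n = 3). Pbsn, the gene of the androgen-dependent secreted protein probasin, averaged 4.63 ± 0.31 on castrated, 6.94 ± 2.51 on estradiol and 5.88 ± 1.38 on combined arrays, against 11.20 ± 0.61 on control arrays (SD, n = 3 each). The estradiol arrays were uneven for it, from 4.82 to 9.71. Array medians lay between 5.53 and 5.76. Estradiol arrays 1 and 2 stood apart. Their SD over all probe sets was 1.93 and 2.01, against 2.24 to 2.30 on the other 10 arrays. Many of the larger differences that involve the estradiol group are also given without arrays 1 and 2.

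Few of the 35 members, and few of all genes, passed a test against control. Whether the members differed from all genes in this was not tested. By limma with Benjamini-Hochberg adjustment over all genes, 0 of 35 passed after castration, where 5.54% of all genes did, and 6 had an unadjusted p under 0.05 (16.1% of all genes). After estradiol 1 of 35 passed, Hoxb13, which fell, where 7.99% of all genes passed and 5.48% fell, and 8 members had an unadjusted p under 0.05 (30.2% of all genes). After the combined treatment 0 of 35 passed, where 4.32% of all genes did, and 4 had an unadjusted p under 0.05 (14.7% of all genes). The F test, which asks whether any group differs, was passed by 0 members, where 5.47% of all genes passed it, and 9 had an unadjusted p under 0.05 (25% of all genes). All 3 comparisons use the same control arrays, so they are not independent of each other.

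Members whose 3 treated arrays did not overlap with the 3 control arrays were also counted, beside the share of all genes of which this held. After castration 3 members lay wholly above control (Gata2, Hoxb4 and Klf4), where 18.8% of all genes did, and 8 wholly below (Hoxb13, Hoxa4, Hoxa7, Hoxb7, Hoxc4, Hoxd3, Spdef and Creb3l1), where 13.7% did. After estradiol 2 lay above (Hoxb4 and Klf4, against 12.3% of all genes) and 6 below (Hoxb13, Hoxa7, Foxa1, Gata3, Spdef and Creb3l1, against 15.1%). After the combined treatment 5 lay above (Hoxb4, Hoxd13, Gata2, Klf4 and Klf5, against 21.1%) and 4 below (Hoxb13, Ehf, Spdef and Creb3l1, against 15.8%).

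How far a change was bounded can be read from the intervals of the differences. The 95% interval lay within 1 log2 unit on either side of 0 for 31 of 35 members after castration (88.6%, against 85.4% of all genes), for 29 after estradiol (82.9% against 76.1%) and for 31 after the combined treatment (88.6% against 86.4%). For these members a 2-fold change lay outside the interval, while smaller changes could lie inside it. The members whose intervals reached further were Elf3 and Hoxa5 in all 3 comparisons, Gata3 after castration and estradiol, Hoxb13 after estradiol and the combined treatment, Gata2 after castration, Creb3l1 and Hoxa7 after estradiol, and Hoxc5 after the combined treatment. The median difference of the members was -0.09 after castration, -0.02 after estradiol and 0.03 after the combined treatment, beside 0.01, 0.07 and 0.04 for all genes. The difference of a member from control had a median standard error of 0.20.

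**Figure D1:**
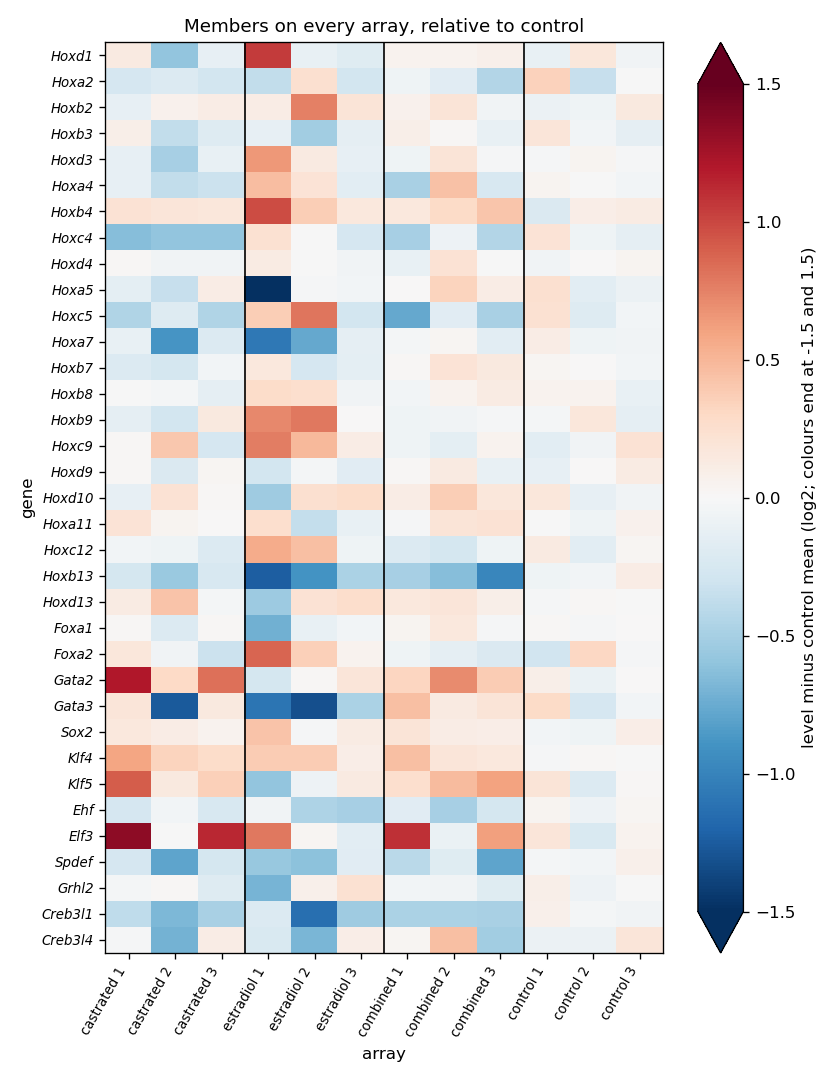
Level of each of the 35 members on each of the 12 arrays minus the mean of the 3 control arrays (log2 units, colour scale ending at -1.5 and 1.5; rows are genes, columns are arrays by group with control at the right). Hoxb13, Creb3l1 and Spdef are blue on all 9 treated arrays, Klf4 is red on all 9, and the strongest colours of the estradiol group sit on arrays 1 and 2.

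**Figure D2:**
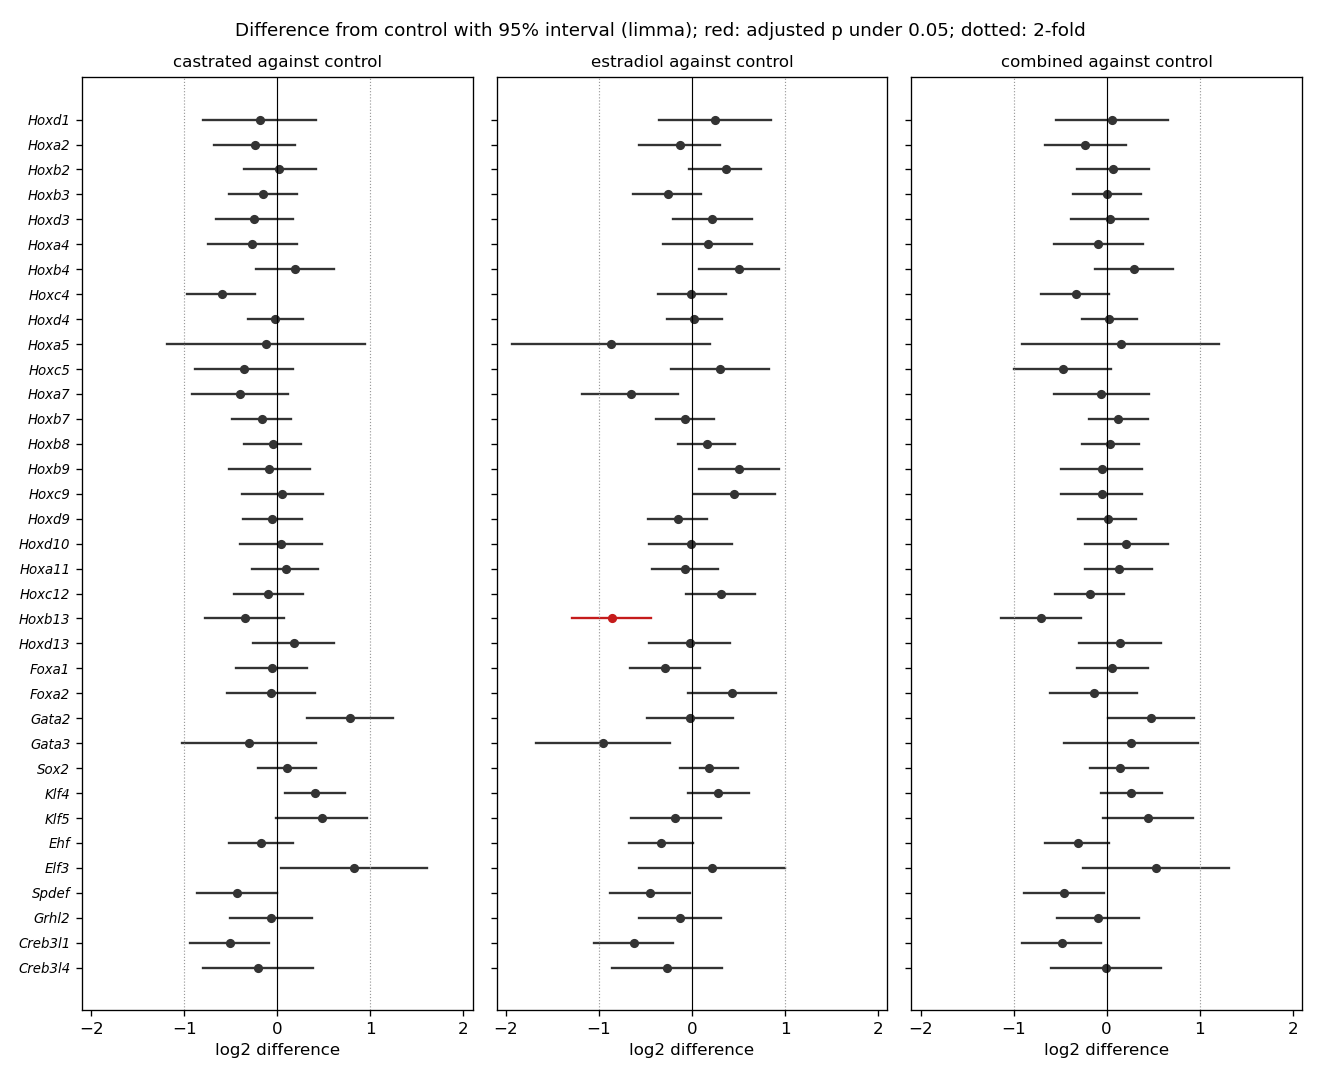
Difference from control of each member after castration, estradiol and the combined treatment (log2 units; points are limma estimates, bars are 95% intervals, dotted lines mark a 2-fold change). The estradiol estimate of Hoxb13, -0.86, is the only one drawn in red for an adjusted p under 0.05.

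Hoxb13, the posterior Hox gene most closely tied to the prostate and, in human cells, a partner of the androgen receptor, was the only member that passed in any comparison. Its level was 10.63, 10.34 and 10.65 on the castrated arrays, 9.66, 10.00 and 10.42 on the estradiol arrays and 10.39, 10.26 and 9.91 on the combined arrays, against 10.83, 10.85 and 11 on the control arrays. Every treated array lay below every control array, and the estradiol and combined arrays overlapped each other. With estradiol it fell by 0.86 ± 0.20 on the log2 scale (SE, adjusted p = 0.0191), to 0.549 of the control level. The difference was -0.71 ± 0.20 in the combined group (adjusted p = 0.0655) and -0.35 ± 0.20 in the castrated group (adjusted p = 0.451), and neither passed.

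The estradiol call of Hoxb13 held in 16 of 21 settings of the processing, among them those without estradiol array 1 (-0.68, adjusted p = 0.0324) or array 2 (-0.85, adjusted p = 0.0437) alone. Without estradiol arrays 1 and 2 the estradiol difference was -0.47 (adjusted p = 0.222, where 5.05% of all genes passed; the spread of the 1 estradiol array left is taken from the other groups), while in the same fit the combined difference of -0.71 passed (adjusted p = 0.00584, where 14.5% of all genes passed). Without control 1, 2 or 3 the estradiol difference was -0.90, -0.89 or -0.81 and no longer passed (adjusted p = 0.0608, 0.0695 or 0.0827), and with only the compared arrays it was -0.86 (adjusted p = 0.12). In whole glands fewer cells of a type and less RNA per cell cannot be told apart. Hoxb13 is known to be expressed in luminal epithelial cells. Of 11 markers of these cells, 5 rose and 0 fell with estradiol at an adjusted p under 0.05, where 7.99% of all genes passed. Prom1 and Cdh1 were lower without passing, with means of 8.66 and 10.67 on estradiol arrays against 9.64 and 10.9 on control arrays. The summed level of the 11 was 14.02 to 14.21 on estradiol arrays against 13.47 to 13.60 on control arrays. Whether the number of these cells bears on the Hoxb13 difference was not tested.

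The mean of the 9 treated arrays against control, a contrast chosen after the values were seen, called the same single member. Hoxb13 fell by 0.64 ± 0.16 (adjusted p = 0.0247, where 8.51% of all genes passed and 4.58% fell), and the call held in 17 of 20 settings. It ended without control 1, 2 or 3, where the difference was -0.67, -0.66 and -0.59 (adjusted p = 0.0864, 0.103 and 0.143). Without estradiol arrays 1 and 2 it passed together with Creb3l1, Ehf and Hoxc4, where 18.7% of all genes did. Creb3l1 had a difference of -0.54 ± 0.16 in that contrast (adjusted p = 0.057). Levels on all 9 treated arrays lay below the control range for 3 members, Hoxb13, Creb3l1 and Spdef, where 7.27% of all genes did, and above it for 2, Klf4 and Hoxb4, where 4.63% did.

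**Figure D3:**
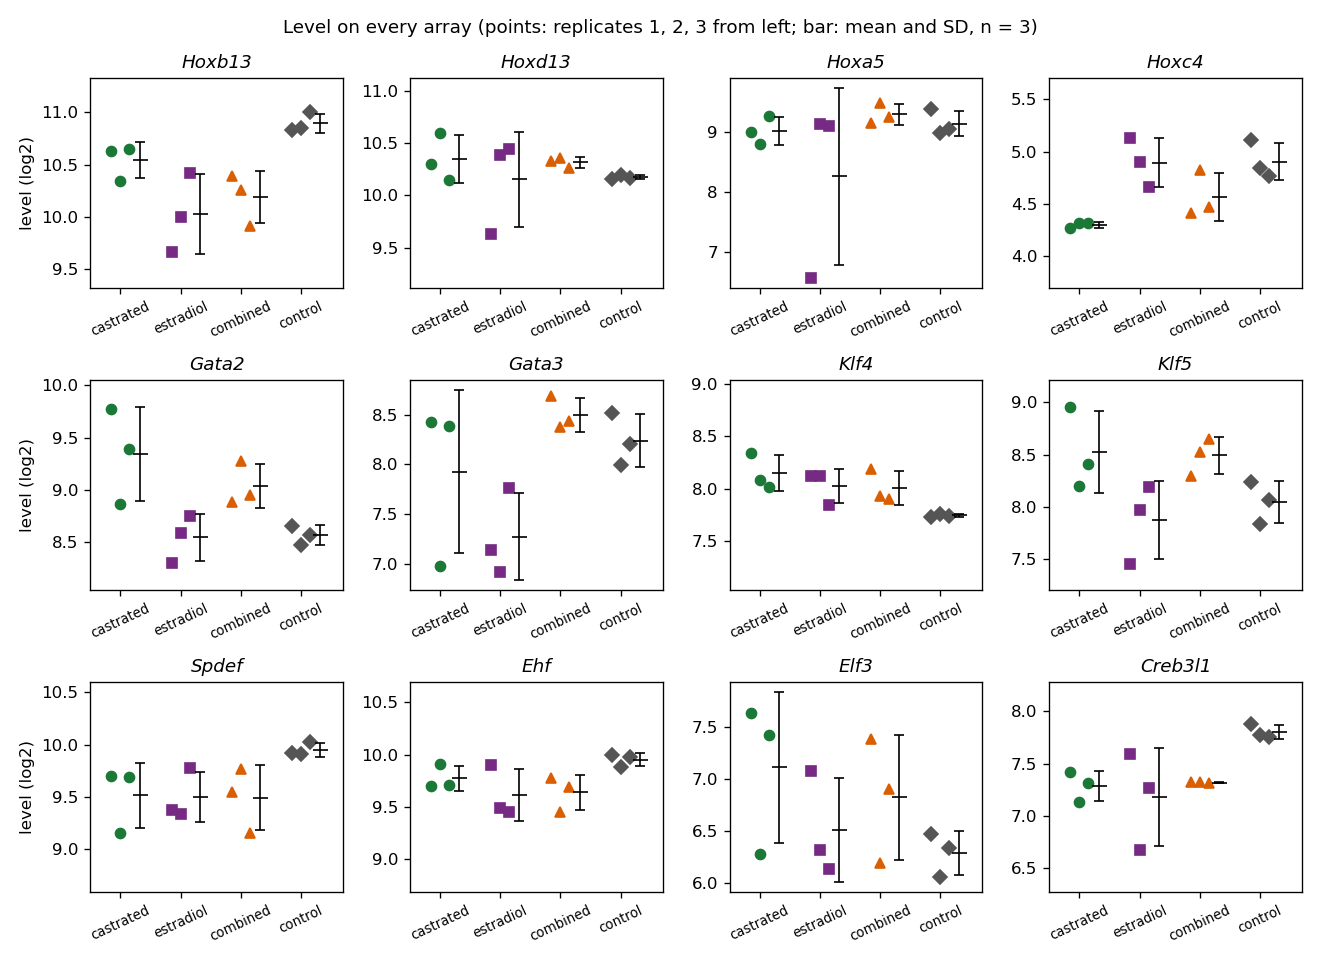
Level of 12 members on every array (log2 units; points are replicates 1, 2 and 3 from left to right, bars give mean and SD, n = 3), with castrated, estradiol and combined groups left of control and vertical scales that differ between panels. Hoxb13 and Creb3l1 lie below the control points on every treated array, and the Hoxa5 level of 6.57 on estradiol array 1 stands alone.

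The other 7 posterior Hox genes, Hoxb9, Hoxc9, Hoxd9, Hoxd10, Hoxa11, Hoxc12 and Hoxd13, did not pass in any comparison. Over the 8 posterior genes, 4 had a difference above 0 and 4 below 0 after castration, with a median of -0.01. After estradiol 3 were above and 5 below, and after the combined treatment 4 were above and 4 below, with a median of -0.02 in both. Hoxd13, which directs budding and branching of the mouse prostate, averaged 10.35 ± 0.23 on castrated, 10.15 ± 0.46 on estradiol and 10.32 ± 0.05 on combined arrays, against 10.18 ± 0.02 on control arrays (SD, n = 3 each). Its combined arrays (10.33, 10.36 and 10.26) lay above its control arrays (10.16, 10.20 and 10.17) by a difference of 0.14, which did not pass. Hoxd9, Hoxd10 and Hoxa11 had differences from control between -0.15 and 0.21. With estradiol Hoxb9, Hoxc9 and Hoxc12 differed from control by 0.50, 0.45 and 0.31. Without estradiol arrays 1 and 2, which leaves 1 estradiol array, these differences were 0, 0.11 and -0.06. Without estradiol array 3 they were 0.75, 0.63 and 0.50 and passed, as did 36.7% of all genes.

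Hoxc4 had the smallest F test p of the 9 central Hox genes (paralog groups 4 to 8). Its level was 4.27, 4.32 and 4.32 on the castrated arrays, 5.13, 4.90 and 4.66 on the estradiol arrays and 4.41, 4.83 and 4.47 on the combined arrays, against 5.11, 4.84 and 4.77 on the control arrays. The castrated arrays lay close together below all other arrays, and those of the other groups overlapped control. The castrated difference of -0.60 ± 0.17 had an adjusted p of 0.0571 and passed in 7 of 20 settings of the processing. Its mean level was under 5, near the dim end of the arrays.

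Of the 9 central genes, 8 had a difference below 0 after castration (median -0.17, against 0.01 for all genes). After estradiol 5 were above 0, and after the combined treatment 5, not all of them the same genes. None of these differences passed. Hoxa5 averaged 8.26 ± 1.47 with estradiol against 9.13 ± 0.21 in control (SD, n = 3 each), because 1 estradiol array had 6.57 and the other 11 arrays lay between 8.79 and 9.47. Its difference was -0.87 with all estradiol arrays and -0.04 without arrays 1 and 2. Hoxa7 was 6.18, 6.48 and 7.11 on the estradiol arrays against 7.36, 7.19 and 7.2 on the control arrays, without overlap, and its difference of -0.66 ± 0.24 did not pass (adjusted p = 0.0928) and was -0.14 without arrays 1 and 2 (adjusted p = 0.854). Hoxb4 was 8.05, 7.44 and 7.23 on the estradiol arrays against 6.85, 7.17 and 7.19 on the control arrays, a difference of 0.51 ± 0.20 (adjusted p = 0.11) that was 0.17 without arrays 1 and 2 (adjusted p = 0.705). Hoxd4 varied least of the members, by 0.33 over all 12 arrays. These 4 genes were named after their values were seen.

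The anterior Hox genes, Hoxd1, Hoxa2, Hoxb2, Hoxb3 and Hoxd3, showed no difference that passed. Hoxd3, which had the smallest F test p among them, was 4.65, 4.27 and 4.66 on the castrated arrays, 5.42, 4.91 and 4.65 on the estradiol arrays and 4.71, 4.97 and 4.75 on the combined arrays, against 4.76, 4.81 and 4.75 on the control arrays. The castrated arrays lay below the control arrays without overlap, with a difference of -0.25 that did not pass, and the other groups overlapped control. Differences of the 5 genes from control lay between -0.26 and 0.36 over the 3 procedures.

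Among the forkhead and Gata factors, Gata2, which acts with the androgen receptor in human prostate cells, came nearest to passing. Its level was 9.77, 8.87 and 9.39 on the castrated arrays, 8.30, 8.59 and 8.75 on the estradiol arrays and 8.89, 9.28 and 8.95 on the combined arrays, against 8.66, 8.47 and 8.57 on the control arrays. All 6 arrays of rats without testes lay above all 6 arrays of rats with testes, a split that was not among the planned comparisons. The share of all genes split in this way was not counted. Castrated arrays lay wholly above control for 18.8% of all genes, and combined arrays for 21.1%. The difference was 0.78 ± 0.21 after castration (adjusted p = 0.0514), 0.48 ± 0.21 after the combined treatment (adjusted p = 0.317) and -0.02 ± 0.21 after estradiol. The castration difference passed in 8 of 21 settings, among them the fit without estradiol arrays 1 and 2 (adjusted p = 0.0191, where 16.6% of all genes passed), and had an adjusted p of 0.221 without castrated array 1.

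Gata3, a factor of luminal differentiation, was 8.42, 6.98 and 8.38 on the castrated arrays, 7.14, 6.92 and 7.76 on the estradiol arrays and 8.69, 8.37 and 8.43 on the combined arrays, against 8.52, 7.99 and 8.20 on the control arrays. The estradiol arrays lay below the control and the combined arrays, and castrated array 2 lay with them. The estradiol difference of -0.96 ± 0.33 did not pass (adjusted p = 0.0857). It passed in 4 of 21 settings of the processing, and was -0.48 without estradiol arrays 1 and 2. Foxa1, the pioneer factor of the androgen receptor, averaged 8.63 ± 0.13 on castrated, 8.41 ± 0.38 on estradiol and 8.76 ± 0.09 on combined arrays against 8.70 ± 0.01 on control arrays (SD, n = 3 each), and its 95% interval lay within 1 log2 unit of 0 in each comparison with control. Foxa2, known from budding and neuroendocrine prostate in the mouse, differed by -0.07, 0.43 and -0.14 after castration, estradiol and the combined treatment, and none passed. Without arrays 1 and 2 the estradiol difference was 0.05 for Foxa2 and -0.04 for Foxa1. Gata3, Foxa1 and Foxa2 were named after their values were seen.

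The Krüppel-like factors Klf4 and Klf5, which regulate growth and differentiation of epithelia, had differences above 0 in rats without testes. Klf5 was 8.96, 8.20 and 8.41 on the castrated arrays, 7.46, 7.97 and 8.19 on the estradiol arrays and 8.30, 8.53 and 8.65 on the combined arrays, against 8.24, 7.84 and 8.07 on the control arrays. The combined arrays lay above the control arrays, and the castrated and estradiol arrays overlapped them. Its differences of 0.48 ± 0.23, -0.18 ± 0.23 and 0.44 ± 0.23 did not pass, and the estradiol one was 0.14 without arrays 1 and 2. Its second probe set gave the same signs (0.16, -0.33 and 0.19).

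Klf4 was 8.34, 8.08 and 8.02 on the castrated arrays, 8.12, 8.12 and 7.84 on the estradiol arrays and 8.19, 7.93 and 7.90 on the combined arrays, against 7.73, 7.76 and 7.74 on the control arrays. All 9 treated arrays lay above the control arrays, which spanned 0.03. The castration difference of 0.40 ± 0.15 had an adjusted p of 0.169 and passed in 2 of 21 settings of the processing. The probe sets of Klf4 disagreed on estradiol. The second one differed by -0.04 with estradiol where the first differed by 0.28 (0.10 without arrays 1 and 2). The second differed by 0.38 after castration and 0.33 after the combined treatment. On that second probe set each treated group overlapped control. Its control arrays were 7.7, 7.41 and 7.66, against 7.41 on castrated array 2, 7.21 on estradiol array 2 and 7.62 on combined array 2.

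Of the epithelial Ets factors, Spdef, known for driving goblet and other secretory cells in the mouse, was 9.70, 9.16 and 9.69 on the castrated arrays, 9.38, 9.34 and 9.78 on the estradiol arrays and 9.55, 9.77 and 9.16 on the combined arrays, against 9.92, 9.91 and 10.03 on the control arrays. All 9 treated arrays lay below control, with a spread within each treated group of 0.25 to 0.31 (SD, n = 3) against 0.07 among controls. The differences were alike in size, -0.43, -0.45 and -0.46 with a standard error of 0.20 each, and none passed. The estradiol difference was -0.17 without arrays 1 and 2. Ehf, an Ets factor of epithelia, differed by -0.18, -0.33 and -0.31 and did not pass, and its estradiol difference was -0.50 without those arrays. Elf3, an Ets factor induced in inflamed epithelia, had the widest spread of these 3 within the castrated group, at 7.63, 6.28 and 7.42 on the castrated arrays against 6.47, 6.06 and 6.34 on the control arrays, with a difference of 0.82 ± 0.36 (adjusted p = 0.278).

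Creb3l1 and Creb3l4 are factors held in membranes of the secretory pathway until they are cleaved, and the human CREB3L4 was described as androgen-induced in prostate cells. Creb3l1 was 7.42, 7.13 and 7.31 on the castrated arrays, 7.59, 6.67 and 7.27 on the estradiol arrays and 7.32, 7.32 and 7.31 on the combined arrays, against 7.88, 7.77 and 7.75 on the control arrays. Every treated array lay below every control array. The differences were -0.51 ± 0.20 after castration (adjusted p = 0.187), -0.62 ± 0.20 after estradiol (adjusted p = 0.0678) and -0.48 ± 0.20 after the combined treatment (adjusted p = 0.25). The castration and combined differences passed in 5 and 3 of 21 settings of the processing. With only the compared arrays both passed, as did 12.9% and 19.8% of all genes. The estradiol difference passed in 4 of 21 settings, and it was -0.53 without estradiol arrays 1 and 2. Creb3l4 averaged 9.02 ± 0.43 on castrated, 8.95 ± 0.39 on estradiol and 9.21 ± 0.49 on combined arrays against 9.22 ± 0.16 on control arrays (SD, n = 3 each), and its groups overlapped.

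Grhl2 differed from control by -0.07, -0.13 and -0.09 and Sox2 by 0.10, 0.18 and 0.14 after castration, estradiol and the combined treatment, and none of these passed. Grhl2, which maintains epithelial junctions, was 9.68, 9.72 and 9.51 on the castrated arrays, 9.01, 9.78 and 9.94 on the estradiol arrays and 9.67, 9.65 and 9.52 on the combined arrays, against 9.79, 9.63 and 9.70 on the control arrays. Sox2, known from basal and neuroendocrine prostate cells, was 6.10, 6.06 and 6.0 on the castrated arrays, 6.37, 5.93 and 6.07 on the estradiol arrays and 6.14, 6.06 and 6.05 on the combined arrays, against 5.91, 5.88 and 6.05 on the control arrays. The groups of both genes overlapped in every comparison with control. The 95% intervals of both lay within 1 log2 unit of 0 in each of these comparisons.

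The treated groups were also compared with each other, to ask what estradiol adds without testes and what castration adds under estradiol. No member passed for the combined treatment against castration (0% of all genes passed), and 0 had an unadjusted p under 0.05, where 1.05% of all genes had. Their arrays did not overlap for 3 members, Hoxb7, Hoxc4 and Hoxd3, each higher in the combined group, where 5.66% of all genes were, and 0 were lower, where 6.64% were. The 95% interval of 32 of 35 members lay within 1 log2 unit of 0. For the combined treatment against estradiol 0 members passed (0% of all genes passed), and 9 had an unadjusted p under 0.05, where 18.9% of all genes had. Here 6 members lay wholly higher in the combined group (Hoxa5, Hoxb3, Foxa1, Gata2, Gata3 and Klf5, against 9.04% of all genes) and 4 wholly lower (Hoxb9, Hoxc9, Hoxc12 and Foxa2, against 6.55%). Gata3 had the largest of these differences, 1.22 ± 0.33 (adjusted p = 0.241), which was 0.74 without estradiol arrays 1 and 2. Hoxa5, Klf5, Foxa2 and Hoxb9 differed by 1.02, 0.62, -0.57 and -0.55. Without those arrays they differed by 0.19, 0.30, -0.19 and -0.05. For estradiol against castration 0 members passed as well (0% of all genes passed), with 9 at an unadjusted p under 0.05, where 27.3% of all genes were.

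In that last comparison Gata2 differed by -0.79 ± 0.21 and Klf5 by -0.65 ± 0.23 (adjusted p = 0.143 and 0.144), with all estradiol arrays below all castrated arrays, as for 9.21% of all genes. Without estradiol arrays 1 and 2 these differences were -0.59 and -0.34. Hoxc4 differed by 0.60 ± 0.17 (adjusted p = 0.143), with all estradiol arrays above, as for 9.47% of all genes, and by 0.36 without those arrays. The 4 measured genes of the Hox C cluster, Hoxc4, Hoxc5, Hoxc9 and Hoxc12, had differences of 0.40 to 0.66 between estradiol and castrated arrays, and of -0.77 to -0.33 between combined and estradiol arrays. Without estradiol arrays 1 and 2 they were 0.36, 0.09, 0.05 and 0.04 between estradiol and castrated arrays, and -0.09, -0.20, -0.16 and -0.12 between combined and estradiol arrays. None of these passed, and all 4 genes have mean levels under 5, a range of levels in which estradiol arrays 1 and 2 read high.

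The interaction compared the effect of estradiol in castrated rats with its effect in intact rats. It was passed by 0 members, where 1.10% of all genes passed, and 3 had an unadjusted p under 0.05, where 14.2% of all genes had. These were Gata3 (1.53 ± 0.47, adjusted p = 0.158), Hoxa7 (1.01 ± 0.34, adjusted p = 0.196) and Creb3l1 (0.65 ± 0.28, adjusted p = 0.32). Without estradiol arrays 1 and 2 they were 1.05, 0.49 and 0.56 (adjusted p = 0.395, 0.487 and 0.134). The interval of an interaction is wider than that of a difference between groups, and it lay within 1 log2 unit of 0 for 23 of 35 members (65.7%, against 59.5% of all genes).

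The values of estradiol arrays 1 and 2 moved with the level of a gene. Of the 8 members with a mean level under 5, both arrays lay above all the other 10 arrays for 5, namely Hoxb8, Hoxb9, Hoxc5, Hoxc9 and Hoxc12 (62.5%, against 48.3% of all genes under that level). The mean of the 2 arrays exceeded that of the other 10 by a median of 0.53 for these 8 members, and by 0.46 for all such genes. Of the 27 brighter members this held for 1, Foxa2 (3.7%, against 7.81% of all genes at that level), and the median difference was -0.25, beside -0.22 for all such genes. Both arrays lay below all the other 10 arrays for 0 of the 27, against 17.9% of all genes at that level. Hoxb13, Gata3 and Hoxa5 lay among the brighter genes, for which the median difference of these arrays was below 0. Hoxa5 was low on estradiol array 1 only, at 6.57 against 9.12 on array 2. The part of this pattern in the estradiol differences of the members was not tested beyond the fits without these arrays.

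**Figure D4:**
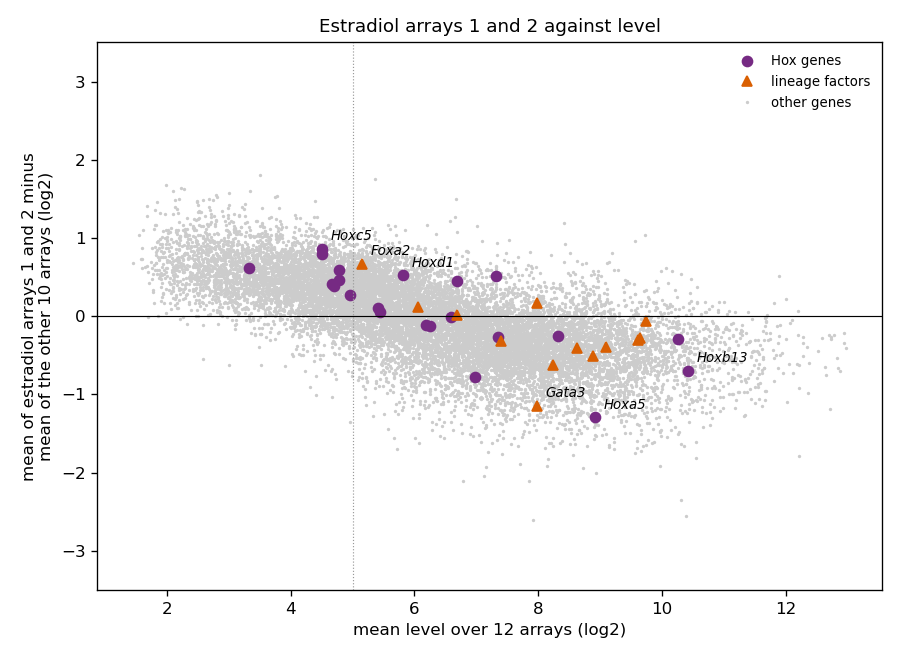
Mean of estradiol arrays 1 and 2 minus the mean of the other 10 arrays, plotted against the mean level over 12 arrays (both log2 units; purple circles are Hox genes, orange triangles are lineage factors, grey points are all other genes, and the dotted line marks a mean level of 5). Most dim genes lie above 0 and most bright genes below it, and the members follow the band of all genes, with Hoxa5 and Gata3 at its lower edge.

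Genes that act with the members were read from lists of their cofactors, regulators and relatives. Of all genes 5.54%, 7.99% and 4.32% passed after castration, estradiol and the combined treatment. An unadjusted p under 0.05 was found for 16.1%, 30.2% and 14.7% of all genes. Of 9 Hox cofactors of the Pbx, Meis and Pknox families 7 were measured. After castration and after the combined treatment 0 of the 7 passed (0 and 1 with an unadjusted p under 0.05), with Meis1 having the smallest p (differences of 0.39 and 0.42, adjusted p = 0.368 and 0.34). After estradiol 1 fell, Meis2, by 1.05 ± 0.27 (adjusted p = 0.0348). Meis2 was 6.37, 7.19 and 7.55 on the estradiol arrays against 8.36, 7.80 and 8.10 on the control arrays. The estradiol arrays lay below control, and the call ended in 11 of 21 settings, among them those without estradiol array 1 or 2, any 1 control array, castrated array 1 or combined array 2, and the fit without estradiol arrays 1 and 2 (-0.54, adjusted p = 0.319, the highest of all settings).

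Of 20 chromatin regulators and upstream activators of Hox genes 15 were measured. After castration and after the combined treatment 0 passed (2 and 1 with an unadjusted p under 0.05), with the smallest p for Ezh2, the methyltransferase of Polycomb silencing (0.64 and 0.60, adjusted p = 0.195 and 0.254). After estradiol 1 fell, Kdm6b, a demethylase that opposes Polycomb, by 0.86 ± 0.24 (adjusted p = 0.0481). Its levels were 7.43, 7.20 and 8.31 on the estradiol arrays against 8.63, 8.49 and 8.38 on the control arrays. Estradiol array 3 lay just below control, and without arrays 1 and 2 the difference was -0.19 (adjusted p = 0.717). The call held in 7 of 21 settings and ended when any single array other than estradiol array 3 was left out.

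Of 43 listed relatives of the lineage factors 39 were measured, and 3 passed in each comparison, beside 5.54%, 7.99% and 4.32% of all genes. After castration 2 rose and 1 fell, after estradiol 1 rose and 2 fell, and after the combined treatment 2 rose and 1 fell. The forkhead gene Foxq1 was 7.31, 6.70 and 6.88 on the castrated arrays, 6.94, 6.50 and 6.79 on the estradiol arrays and 7.02, 6.69 and 7.07 on the combined arrays, against 5.56, 5.57 and 5.26 on the control arrays. It rose by 1.5 ± 0.19, 1.28 ± 0.19 and 1.46 ± 0.19 (adjusted p = 0.000442, 0.00172 and 0.00058), and these 3 calls held in all 21 settings. Its interaction, -1.32 ± 0.27, passed (adjusted p = 0.0343), and did so in 12 of 20 settings, with adjusted p values of 0.0184 to 0.122. No array of a treated rat came within the control range of Foxq1.

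Grhl3, a relative of Grhl2 that serves epithelial barriers, rose by 1.46 ± 0.35 after castration and 1.52 ± 0.35 after the combined treatment (adjusted p = 0.0261 and 0.0246), and differed by 0.59 with estradiol (adjusted p = 0.256). Its calls ended without castrated array 1, 2 or 3 for castration, without combined array 1 or 3 for the combined treatment, and without control array 2 or 3 for both, with adjusted p values of up to 0.139 and 0.141. Creb3l2, a relative of Creb3l1 that serves the secretory pathway, was 9.62, 9.37 and 9.77 on the castrated arrays, 9.19, 9.41 and 9.78 on the estradiol arrays and 9.61, 9.78 and 9.49 on the combined arrays, against 10.54, 10.28 and 10.31 on the control arrays. It fell by 0.79, 0.91 and 0.75 on the log2 scale (adjusted p = 0.02, 0.00859 and 0.0299), and all treated arrays lay below control, as they did for Creb3l1. Its estradiol difference was -0.59 without estradiol arrays 1 and 2 (adjusted p = 0.0997), and each of its 3 calls ended without control array 1. The castration call also ended without control 2 or 3 or castrated array 1 or 2 (adjusted p of up to 0.0947), and the combined call without control 2 or 3 or any 1 combined array (adjusted p of up to 0.16). The Ets factor Etv1 fell with estradiol by 0.74 ± 0.18 (adjusted p = 0.0274). Its difference was -0.57 without estradiol arrays 1 and 2 (adjusted p = 0.211), and the call also ended without estradiol array 2 or any 1 control array.

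Of 27 other factors of prostate development and lineage 20 were measured. Against control 0 passed after castration, estradiol or the combined treatment, where 5.54%, 7.99% and 4.32% of all genes did. An unadjusted p under 0.05 was found for 3, 4 and 3 of them, and for 16.1%, 30.2% and 14.7% of all genes. The smallest p belonged to Zeb2 after castration (0.65, adjusted p = 0.134), to Myc after estradiol (0.71, adjusted p = 0.0627) and to Runx1 after the combined treatment (0.75, adjusted p = 0.0797).

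Markers of the cells that could carry these transcripts moved between the groups. Markers counted as rising or falling had an adjusted p under 0.05. After castration, estradiol and the combined treatment this held for 5.54%, 7.99% and 4.32% of all genes. An unadjusted p under 0.05 was found for 16.1%, 30.2% and 14.7% of all genes. Of 11 luminal markers 7 rose after castration, 5 after estradiol and 8 after the combined treatment, and 0 fell. Their summed level was 14.39 to 14.64 on castrated, 14.02 to 14.21 on estradiol and 14.34 to 14.59 on combined arrays, against 13.47 to 13.60 on control arrays. Of 12 macrophage markers 8, 3 and 6 rose and 0 fell, with summed levels of 12.05 to 12.77 on castrated, 10.93 to 12.23 on estradiol and 11.79 to 12.23 on combined arrays, against 10.90 to 11.24 on control arrays. Of 8 basal markers 0 passed in these comparisons, with 1, 1 and 2 at an unadjusted p under 0.05. Of 11 fibroblast markers 0 passed, with 1, 6 and 0 at an unadjusted p under 0.05, and their summed level was 12.11 to 12.39 on estradiol arrays against 12.60 to 12.96 on control arrays. Of 10 smooth muscle and 10 endothelial markers 1 each fell with estradiol, Cnn1 and Pecam1, and 0 passed after castration or the combined treatment. Of 9 lymphocyte markers 1, 2 and 1 rose and 0 fell after castration, estradiol and the combined treatment. Of 6 markers of the neighbouring seminal vesicle and coagulating gland 0 passed, with 1 at an unadjusted p under 0.05 in each comparison. Of 6 Schwann cell and nerve markers 1 fell in each comparison and 1 rose with estradiol, and of 9 markers of skeletal muscle, fat and blood 1 rose and 1 fell with estradiol. Their part in the levels of the Hox and lineage factors was not tested.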

How the data were processed

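RNA from the ventral prostate was labelled and hybridized to 12 Affymetrix arrays, 3 per group, per the labels' protocols. The authors processed them with Affymetrix Expression Console, per the submitters' processing notes, with no version. The deposited values, 1 per probe set and array, were taken as log2 levels from their range, and the sources used here do not give the normalization, the log base or the build. The table held 29214 probe sets, of which 15310 had 1 gene symbol, 323 several and 13581 no symbol. The probe set with the highest mean over 12 arrays stood for each gene, which left 14506 genes, and all 35 members matched the gene table by identifier.

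Differences were fitted in R 4.3.3 by lmFit and eBayes of limma 3.58.1, with 1 mean per group over 12 arrays, 8 residual and 5.29 prior degrees of freedom. Tests were 2-sided, with Benjamini-Hochberg adjustment across all genes and 0.05 as the threshold, and every adjusted p comes from limma. The fitting step was tested on simulated data before use. The summed level of a marker list is log2 of the sum of its genes' linear values. Python 3.11.15 with matplotlib 3.10.9 drew the figures. The members, gene lists, tests and alternatives were chosen with earlier results of these data known. Described on every array were members that passed and, in a role group without one, the member with the smallest F test p. Klf4, Gata3, Elf3 and the others given with array values were added after their values were seen. The correlation of deviations from the group means was over 0.1 in 7 of 18 same-numbered pairs of arrays (-0.156 to 0.284), so the numbers were not taken as pairs in comparisons with control. Castrated and estradiol arrays differed most in this: their 3 same-numbered pairs had 0.144 to 0.284 and their 6 other pairs -0.218 to -0.008. Castrated and combined arrays had 0.065 to 0.127 in same-numbered pairs and -0.19 to 0.096 in the others. Estradiol and combined arrays had -0.012 to 0.152 and -0.225 to 0.111. The treated groups were compared unpaired, with the replicate number as a block only among the alternatives. Depth has no meaning for arrays, and their number limits the precision.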

Additional observations from a re-analysis of the deposited data

How the results depend on the processing

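The comparison of combined with castrated rats gave 0 calls among the members in all 20 alternatives. The share of all genes called under the same setting stands in brackets. After castration (0 calls) centred array medians gave 1 (4.85%), quantile normalization 2 (5.85%), genes with a mean of at least 5 gave 1 (8.31%), array weights 6 (26.1%), the fit without estradiol arrays 1 and 2 gave 4 (16.6%), only the compared arrays 3 (12.9%), and single arrays left out 0 to 3, the highest without estradiol array 1 (12.3%). After estradiol (1 call) centred medians gave 2 (9.02%), array weights 4 (15.9%), the fit without arrays 1 and 2 gave 0 (5.05%), only the compared arrays 0 (1.36%), and single arrays left out 0 to 11, the highest without estradiol array 3 (36.7%). After the combined treatment (0 calls) quantile normalization gave 1 (4.47%), array weights 9 (28.5%), the fit without arrays 1 and 2 gave 2 (14.5%), only the compared arrays 4 (19.8%), and single arrays left out 0 to 1. That 1 came without estradiol array 1 (10.2%) and also without estradiol array 3 (6.2%). For combined against estradiol array weights gave 2 (3.37%) and single arrays left out 0 to 8 (28.6% at the highest), for estradiol against castrated 3 (11.2%) and 0 to 10 (37.3%), and for the interaction 3 (7.25%) and 0 to 3 (11.6%), with the highest counts without estradiol array 3. For the mean of treated arrays (1 call) centred medians gave 2 (7.61%), genes with a mean of at least 5 gave 2 (12.5%), array weights 8 (26.7%), the fit without arrays 1 and 2 gave 4 (18.7%), and single arrays left out 0 to 3, the highest without estradiol array 1 (15.2%). The F test (0 calls) gave 1 for genes with a mean of at least 5 (8.25%), 10 with array weights (36.6%), 2 without arrays 1 and 2 (12%), and 0 to 9 with single arrays left out, the highest without estradiol array 3 (34.1%). With the replicate number as a block 2 members passed after estradiol (8.65%). These were Hoxb13 and Gata3, with Gata3 at -0.96 and an adjusted p of 0.0417. In the mean of treated arrays 2 passed with the block (8.71%), Creb3l1 and Hoxb13. The count of calls with the block was the same in the other comparisons, estradiol against castrated included. Of 1406 values of the 9 members described on every array by rule under these alternatives, 1245 kept their side of the threshold, 61 gained and 8 lost a call, 92 changed sign without a call, and no called difference changed sign. The causes of these shifts were not tested. Centring moved the median of all genes for estradiol against castrated to -0.14, against -0.01 on the deposited values. With 3 arrays per group, the intervals of single members still hold changes under 2-fold.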
